A study of Mus musculus with 6 samples.

Results

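Expression of 32 genes of cholesterol and fatty acid synthesis was described in nuclei of the mouse pons and medulla, out of 32285 genes counted. The genes were taken as the rows whose symbol is on a list of pathway enzymes, regulators and carriers, and all 32 were present in all 6 deposited matrices. They comprise 7 genes of the mevalonate and isoprenoid steps, 11 of the steps between squalene and cholesterol and 6 of fatty acid synthesis. The others are 3 genes of sterol transport and 5 that encode the sterol regulatory element-binding proteins (SREBPs) or their regulators. Counts came from single-nucleus RNA sequencing of wild-type male C57BL6/J mice. In the first group, 3 libraries came from mice kept in chronic intermittent hypoxia (CIH) between postnatal days 22 and 43: nitrogen brought chamber oxygen down to 4.5 to 5% over 60 seconds, up to 5 minutes of compressed air returned it to 21%, and 80 such cycles filled 8 hours of each of 21 days. In the second, 3 libraries came from wild-type males of the same strain and age kept in room air (normoxia). The number of mice behind a library is not in the labels, and the spread that the tests use is that between these 6 libraries, which may be technical in part. The brainstem was frozen before nuclei were released and sorted, so the counts are of nuclear RNA.

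Cholesterol cannot cross from blood into brain in useful amounts and is made within the tissue, first by oligodendrocytes for myelin and in the adult largely by astrocytes, which pass it to neurons on apolipoprotein E particles. Acetyl-CoA is built into mevalonate, isoprenoid units, squalene, lanosterol and finally cholesterol, and the same precursor is carboxylated, condensed, elongated and desaturated into fatty acids. SCAP escorts SREBPs to the Golgi when membrane sterol is low, INSIG proteins hold them back when it is high, and the released SREBPs turn on genes of both branches.

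The 6 libraries held 4607 to 12032 barcodes and 26733243 to 46754345 unique molecular identifiers (UMIs). Of 43836 barcodes, 40139 passed the limits of 500 genes or more and 5% mitochondrial UMIs or less, and nuclei were assigned to a class by how many of its fixed markers they carried. This gave 11141 oligodendrocytes, 703 astrocytes, 7637 neurons, 1420 microglia, 2969 granule neurons and 363 oligodendrocyte precursors. Nuclei with markers of granule neurons, a mainly cerebellar type, were kept apart from the other neurons. No marker list screened for other cerebellar neurons. Astrocytes were few, with 42, 57 and 384 nuclei per CIH library, against 59, 81 and 80 per normoxia library. No member was used as a marker. The 11 astrocyte markers, which did set the class, summed to 7582 to 8063 UMIs per 1000000 UMIs of the class (CPM) in CIH astrocytes and to 7721 to 8367 CPM in normoxia astrocytes.

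Some libraries were not independent or stood apart. CIH 1 and normoxia 2 shared 1163 barcodes among their kept nuclei, 17.6% of those of normoxia 2, where the other 14 pairs of libraries shared 2 to 31. Over the 1563 barcodes deposited in both, kept or not, normoxia 2 held a median of 0.126 times the UMIs of CIH 1. Of these profiles, 99.4% matched their own barcode best. The shared barcodes made up 4.62% of oligodendrocytes, 6.17% of astrocytes, 11.98% of neurons, 0.37% of microglia and 7.42% of granule neurons in normoxia 2. Leaving them out changed no call of a member in any comparison below. CIH 3 had a median mitochondrial share of 0.366%, against 0.0624 to 0.0955% in the other 5 libraries. The third library of each group also lay far from the first and second, which were close to each other, and results that rest on CIH 3 are given with and without it.

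Levels below are CPM, the UMIs of a gene per 1000000 UMIs of its class in the same library. Fold changes are log2 values from edgeR's quasi-likelihood fit, which rescales the class totals (trimmed mean of M-values). Their standard errors were derived as the size of the log2 value divided by the square root of the F statistic of its test. A gene is called at a Benjamini-Hochberg adjusted p under 0.05 over all genes tested. Class differences were fitted over 24 sums, 6 libraries by 4 classes, with a term for library. Genes on the opposite strand overlap 7 members, Hmgcs1, Fdft1, Lss, Cyp51, Srebf1, Acaca and Elovl6, among them Ctsb over Fdft1, Akap9 over Cyp51 and Rai1 over Srebf1. Whether counting used strand is not given in the sources used here, so reads of these pairs may not be separable.

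Most members were higher in oligodendrocytes and in astrocytes than in neurons or in microglia. Against neurons, oligodendrocytes were higher in 28 of 32 members and lower in 1, where 40.1% of all 14410 genes were called higher and 39.8% lower. The median log2 difference was 1.23 over members and 0.03 over all genes. Astrocytes were higher than neurons in 23 members and lower in 2 (24.2% and 30.7% of all genes), with medians of 1.01 and -0.11. Against microglia, oligodendrocytes were higher in 28 and lower in 2 (30.0% and 24.2% of all genes; medians 2.14 and 0.08), and astrocytes were higher in 27 and lower in 1 (23.4% and 23.2%; medians 2.40 and -0.04). Neurons were higher than microglia in 18 members and lower in 4 (38.5% and 30.6%; medians 0.88 and 0.12).

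Oligodendrocytes and astrocytes did not rank one way over the list. Oligodendrocytes were higher in 8 members and lower in 10, against 26.8% and 21.7% of all genes, and 14 members were not called. With class totals left unscaled, the split was 6 higher and 13 lower. The ranges over the 6 libraries overlapped for 26 of 32 members in this pair. By contrast they were separate, with oligodendrocytes above neurons, for 23 members.

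The 32 members together took 0.279 to 0.344% of all UMIs in oligodendrocytes, 0.354 to 0.443% in astrocytes, 0.116 to 0.131% in neurons and 0.093 to 0.151% in microglia. Without Apoe and Scd2 the shares were 0.205 to 0.229%, 0.191 to 0.259%, 0.101 to 0.113% and 0.07 to 0.082% in the same order of classes. Over all 32 members the ranges of neurons and microglia overlapped. With these 2 genes left out those were separate, and the ranges of oligodendrocytes and astrocytes overlapped. Scaling bears on the sizes: with class totals left unscaled the median over all genes moved to -0.09 for oligodendrocytes against astrocytes, -0.12 against neurons and -0.40 against microglia, to -0.29 for astrocytes against microglia and to -0.21 for neurons against microglia. The member medians then were -0.23, 1.08, 1.66, 2.16 and 0.54 in the same order. No member called in a pair turned its sign, but some lost the call. These were Fdps and Scd2 for oligodendrocytes against astrocytes, Dhcr7 and Lss against neurons, and Pmvk for astrocytes against microglia. Neurons against microglia lost 4, Hsd17b7, Insig1, Msmo1 and Idi1, which left 14 members higher in neurons.

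**Figure D1:**
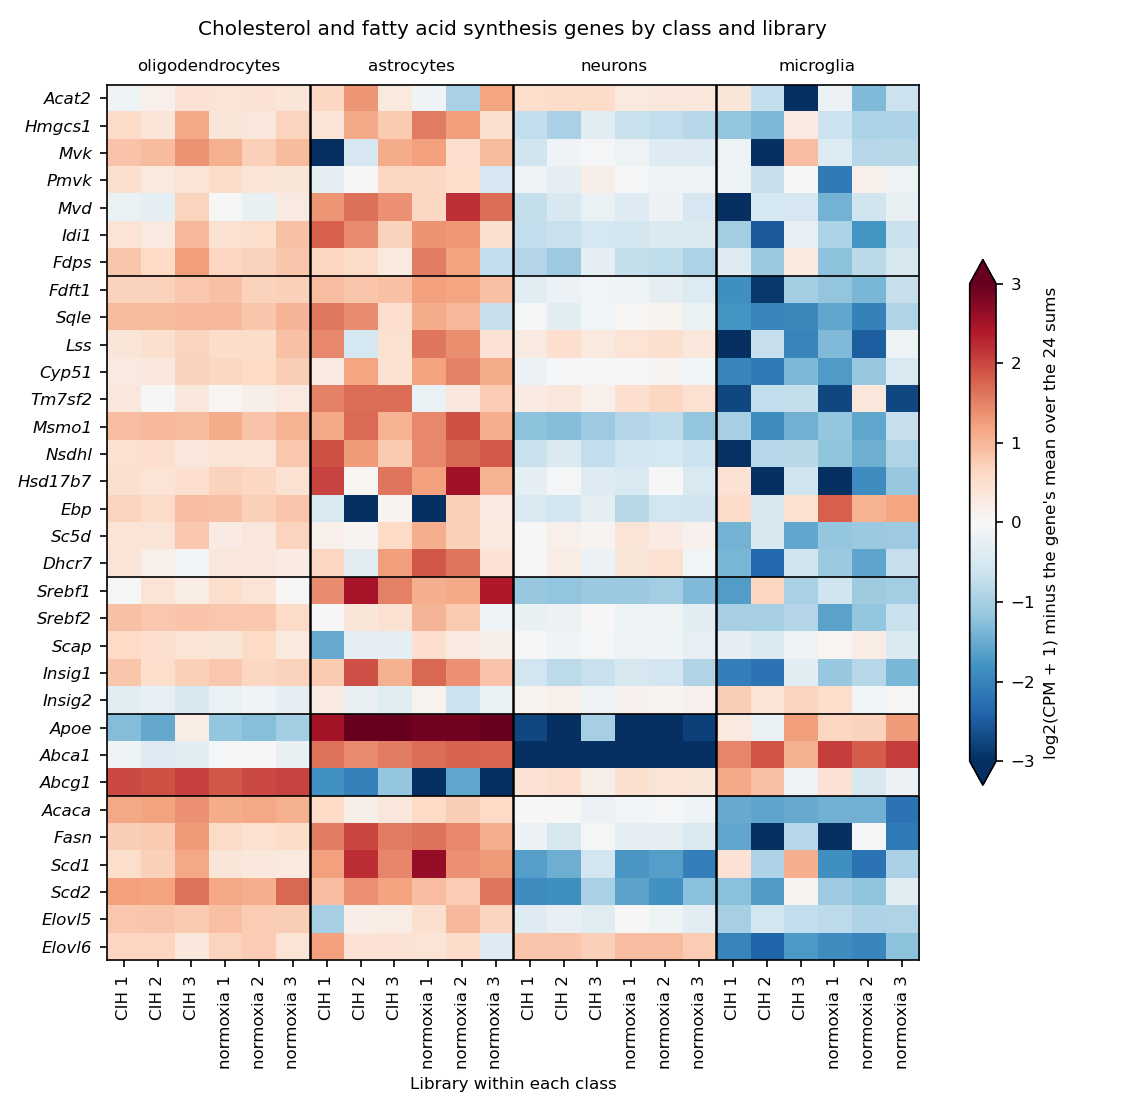
Levels of the 32 members (rows, grouped by role) in 24 class sums (columns: 4 classes, each with CIH 1 to 3 and then normoxia 1 to 3), as log2(CPM + 1) minus the gene's own mean over the 24 sums; colours saturate at 3 above or below. Most rows are above their mean in oligodendrocytes and astrocytes and below it in microglia, while columns of the CIH and normoxia libraries of a class look alike.

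In the mevalonate and isoprenoid steps, all 7 members were higher in oligodendrocytes and in astrocytes than in microglia (30.0% and 23.4% of all genes). The Pmvk call for astrocytes against microglia ended with unscaled totals. Ranges of these 2 classes overlapped for Acat2, Mvk, Pmvk and Fdps. Against neurons 6 were higher in oligodendrocytes and 5 in astrocytes (40.1% and 24.2% of all genes). Hmgcs1, which makes HMG-CoA, had a lowest, median and highest level of 98.5, 108 and 171 CPM in oligodendrocytes, 103, 152 and 229 in astrocytes, 38.5, 45.8 and 61.8 in neurons and 29.6, 39.6 and 93.6 in microglia. Every oligodendrocyte and astrocyte sum lay above every neuronal one, by log2 differences of 1.46 ± 0.09 and 1.51 ± 0.15. Neurons and microglia overlapped (0.35 ± 0.18, not called).

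Mvd, the decarboxylase that releases isopentenyl diphosphate, was the 1 gene of these steps called higher in astrocytes than in each other class (9.3% of all genes). Its levels were 7.33, 8.298 and 14.8 CPM in oligodendrocytes, 14.3, 27.4 and 44.4 in astrocytes, 5.12, 6.38 and 7.83 in neurons and 0, 5.76 and 7.61 in microglia (lowest, median, highest), a log2 difference of -1.16 ± 0.25 for oligodendrocytes against astrocytes (adjusted p = 0.000186 in edgeR). The ranges of those 2 classes overlapped narrowly, between 14.3 and 14.8 CPM. Fdps, which makes farnesyl diphosphate, was called highest in oligodendrocytes (40.6, 46.02 and 65.3 CPM) ahead of astrocytes (15.5, 41.3 and 81.02 CPM), but this call against astrocytes (0.54 ± 0.19) ended with RLE size factors and with unscaled totals.

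The isomerase gene Idi1 followed the order of Hmgcs1, at 26.7, 31.1 and 44.7 CPM in oligodendrocytes, 31.1, 56.4 and 78.5 in astrocytes, 12.8, 14.8 and 15.97 in neurons and 2.96, 10.4 and 18.1 in microglia. Of the kinase genes, Mvk was 1.53 ± 0.13 higher on the log2 scale in oligodendrocytes than in neurons, and Pmvk 0.67 ± 0.10. Acat2, a cytosolic thiolase that forms acetoacetyl-CoA, had medians of 20.4, 21.7, 21.3 and 9.19 CPM in oligodendrocytes, astrocytes, neurons and microglia, and was called only in the pairs with microglia.

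Between squalene and cholesterol, microglia were below each of the other classes in 10 of 11 genes, where 9.3% of all genes were, and in 8 of 11 with unscaled totals. Over all members that count was 18 of 32, and it was 14 with unscaled totals. Cyp51, the lanosterol demethylase, stood at 66.5, 84.6 and 92.6 CPM in oligodendrocytes, 66.4, 122 and 159 in astrocytes, 48.5, 52.7 and 58.1 in neurons and 11.8, 18.7 and 39.95 in microglia. No microglial sum reached the lowest sum of any other class, and the smallest of the 3 log2 differences was 1.58 ± 0.19, against neurons (adjusted p = 3.79e-09 in edgeR). Sqle, the squalene epoxidase that is a control point of the pathway, had 20.4, 24.6 and 27.9 CPM in neurons and 5.597, 6.37 and 13.3 CPM in microglia, with no overlap (1.96 ± 0.29).

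The exception in microglia was Ebp, the sterol isomerase. It had 13.2, 15.5 and 17.2 CPM in oligodendrocytes, 0, 7.59 and 14.8 in astrocytes, 4.4, 5.52 and 7.01 in neurons and 5.91, 16.03 and 32.5 in microglia, and was lower in neurons than in microglia (-1.34 ± 0.29). Astrocytes had no Ebp UMI in CIH 2 and in normoxia 1, which allows up to 15.1 and 14.3 CPM (3 counts of the class total, counting error only).

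Astrocytes were called above each other class for 4 genes of this stretch, Nsdhl, Dhcr7, Hsd17b7 and Tm7sf2, where 9.3% of all genes were. Nsdhl, a dehydrogenase of sterol demethylation, stood at 41.4, 43.96 and 57.8 CPM in oligodendrocytes, 57.6, 101 and 127 in astrocytes, 19.2, 21.04 and 24.04 in neurons and 3.35, 15.3 and 18.1 in microglia. The lowest astrocyte sum lay just under the highest oligodendrocyte sum, and neurons lay between oligodendrocytes and microglia with no overlap on either side. Its log2 differences were -0.70 ± 0.15 for oligodendrocytes against astrocytes and 1.96 ± 0.16 for astrocytes against neurons. Dhcr7, the last reductase on 1 branch, was -0.82 ± 0.20 in oligodendrocytes against astrocytes, Hsd17b7 was -0.94 ± 0.25 and Tm7sf2 -0.99 ± 0.33. Tm7sf2 overlaps Vps51 on the same strand, so its reads and those of Vps51 may not be separable.

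Msmo1, the sterol methyl oxidase, separated macroglia from neurons most widely in this stretch. Its levels were 123, 132 and 147 CPM in oligodendrocytes, 140.0, 168 and 256 in astrocytes, 27.1, 30.6 and 39.2 in neurons and 17.7, 26.98 and 41.9 in microglia, with log2 differences of 2.21 ± 0.09 for oligodendrocytes and 2.36 ± 0.13 for astrocytes against neurons. Oligodendrocytes and astrocytes overlapped (-0.15 ± 0.12, not called). With RLE size factors and with unscaled totals, however, Msmo1 was called higher in astrocytes than in each other class. Fdft1 (squalene synthase) and Lss (lanosterol synthase) were called higher in oligodendrocytes than in neurons, by 1.14 ± 0.07 and 0.37 ± 0.11. The Lss difference lost its call with unscaled totals, and the desaturase gene Sc5d differed by 0.47 ± 0.08 in that pair.

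Promoters of 5 members are shown as examples with 3 motifs known from this pathway. RefSeq (GRCm38.p6) gave windows from 250 bases before to 50 bases after the start for 26 of 32 members, and Fdps, Fdft1, Sqle, Abcg1, Scd1 and Scd2 had none. The motifs were CCAAT, the letters bound by NF-Y, the E-box CACGTG, a core that SREBPs and other factors can bind, and TCACNCCAC, a form of the sterol regulatory element. Each was searched on both strands, and no match of 1 motif overlapped that of another. A gene was counted if any of its windows held the motif, with 36 windows for the 26 members and 32851 for all 27025 genes. CCAAT stood in 20 of 26 members (76.9%) and in 41.1% of 27025 genes, and in 9 of 9 members of the squalene-to-cholesterol steps that have a window. Among these 9, Dhcr7 and Tm7sf2 were counted through a window inside the annotated gene, and the Dhcr7 window at the gene's annotated start held none. CACGTG stood in 7 of 26 (26.9%) against 8.09% of all genes, and TCACNCCAC in 1 of 26, Hmgcs1, against 1.44%. The 5 promoters shown do not stand for the list. Hmgcs1, the 1 member with TCACNCCAC, is among them, as is Sc5d, with 1 of the 4 member windows that hold both CACGTG and CCAAT. The lines give the 250 bases before the start, 5′ to 3′ on the gene's strand, with matches on either strand in capitals: Hmgcs1 at chr13:119690101-119690350 on the plus strand, Nsdhl at chrX:72918271-72918520 on the plus strand, Sc5d at chr9:42264301-42264550 on the minus strand, Abca1 at chr4:53159896-53160145 on the minus strand and Fasn at chr11:120824548-120824797 on the minus strand.
Hmgcs1: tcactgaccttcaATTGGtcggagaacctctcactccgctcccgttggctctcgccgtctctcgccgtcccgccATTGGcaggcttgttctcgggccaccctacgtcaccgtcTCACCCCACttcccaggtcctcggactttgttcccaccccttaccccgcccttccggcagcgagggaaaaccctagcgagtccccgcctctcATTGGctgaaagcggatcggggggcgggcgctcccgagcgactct
Nsdhl: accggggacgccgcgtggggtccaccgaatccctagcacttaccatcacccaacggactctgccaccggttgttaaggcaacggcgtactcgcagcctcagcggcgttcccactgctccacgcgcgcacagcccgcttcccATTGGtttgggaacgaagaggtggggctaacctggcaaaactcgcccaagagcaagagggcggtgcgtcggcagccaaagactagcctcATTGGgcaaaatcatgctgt
Sc5d: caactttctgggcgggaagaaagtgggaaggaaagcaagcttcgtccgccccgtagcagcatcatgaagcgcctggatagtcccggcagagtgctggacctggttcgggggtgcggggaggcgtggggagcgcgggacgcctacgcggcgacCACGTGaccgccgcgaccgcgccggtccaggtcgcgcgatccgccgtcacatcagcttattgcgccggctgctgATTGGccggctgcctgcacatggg
Abca1: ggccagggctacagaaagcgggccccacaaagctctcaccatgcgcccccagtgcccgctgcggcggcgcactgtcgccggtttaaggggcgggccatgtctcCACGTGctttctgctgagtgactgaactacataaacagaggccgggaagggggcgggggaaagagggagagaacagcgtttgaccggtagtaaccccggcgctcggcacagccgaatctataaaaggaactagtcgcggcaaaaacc
Fasn: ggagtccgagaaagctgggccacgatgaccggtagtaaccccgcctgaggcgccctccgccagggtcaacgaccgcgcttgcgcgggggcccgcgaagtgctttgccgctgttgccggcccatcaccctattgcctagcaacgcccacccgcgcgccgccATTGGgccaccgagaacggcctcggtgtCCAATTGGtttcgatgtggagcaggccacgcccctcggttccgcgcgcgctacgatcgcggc
Hmgcs1 holds CCAAT (read as ATTGG) 3 times and the sterol element once. Nsdhl holds CCAAT 2 times, Sc5d holds CCAAT once and CACGTG once, Abca1 holds CACGTG and no CCAAT, and the 3 CCAAT matches of Fasn include 2 that overlap as CCAATTGG. A match is a description of letters, and binding was not measured.

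Among the SREBPs and their regulators, the 2 SREBP genes were ranked differently by class. Srebf2, whose product mainly drives sterol genes, was called highest in oligodendrocytes, at 149.8, 179 and 186 CPM, against 93.2, 134 and 205 in astrocytes, 81.4, 90.2 and 102 in neurons and 32.5, 50.2 and 62.8 in microglia. Oligodendrocytes overlapped with astrocytes (0.57 ± 0.12) and not with neurons (1.09 ± 0.08), and microglia lay below every other sum. Srebf1, whose product mainly drives fatty acid genes, was called highest in astrocytes, with 12.2, 16.2 and 19.04 CPM in oligodendrocytes, 28.6, 37.3 and 75.5 in astrocytes, 4.53, 5.32 and 5.72 in neurons and 3.35, 5.87 and 20.7 in microglia. Each astrocyte sum lay above each sum of the other classes, and the log2 difference was -1.24 ± 0.21 for oligodendrocytes against astrocytes and 2.97 ± 0.24 for astrocytes against neurons.

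Scap, the escort of SREBPs, was called highest in oligodendrocytes, with medians of 50.5, 35.8, 33.3 and 31.7 CPM in oligodendrocytes, astrocytes, neurons and microglia. Insig1, a sterol-regulated retention factor, was called highest in astrocytes at 54.3, 73.7 and 121 CPM, -0.36 ± 0.15 for oligodendrocytes against them. Insig2 was the 1 member called lower in oligodendrocytes than in neurons (-0.21 ± 0.08), though the ranges of these 2 classes overlapped. Its medians ranged between 29.8 and 49.4 CPM over the 4 classes, with no other pair called at the scaling used here. In CPM, however, every oligodendrocyte sum of Insig2 lay below every microglial sum.

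Sterol transport held the widest class differences. Apoe, the lipid carrier secreted by glia, had 53.2, 66.96 and 182 CPM in oligodendrocytes, 887, 1316 and 1533 in astrocytes, 15.4, 20.1 and 78.5 in neurons and 136, 251 and 382 in microglia. The lowest astrocyte sum was above the highest sum of every other class, and log2 differences were 5.52 ± 0.19 for astrocytes against neurons and 2.5 ± 0.19 against microglia (adjusted p = 4.19e-14 in edgeR). The highest Apoe sums of oligodendrocytes and neurons were those of CIH 3. Abca1, which loads cholesterol onto apolipoproteins, was at 38.5, 44.5 and 49.8 CPM in oligodendrocytes, 136, 159.5 and 174 in astrocytes, 3.81, 4.73 and 5.46 in neurons and 106, 185 and 217 in microglia. Its neuronal sums were far below all others (5.0 ± 0.16 for astrocytes against neurons, -4.9 ± 0.14 for neurons against microglia), while astrocytes and microglia overlapped (0.10 ± 0.14, not called).

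Abcg1, a transporter that moves cholesterol to lipoproteins, ran the other way between the glial classes. It had 89.6, 96.9 and 102 CPM in oligodendrocytes, 0, 5.54 and 10.1 in astrocytes, 27.01, 31.6 and 33.9 in neurons and 16.8, 26.8 and 53.6 in microglia. Every oligodendrocyte sum lay above every other sum and every astrocyte sum below, with log2 differences of 3.98 ± 0.26 for oligodendrocytes against astrocytes, 1.76 ± 0.09 against neurons and 2.19 ± 0.17 against microglia. Astrocytes had no Abcg1 UMI in normoxia 1 and normoxia 3, which allows up to 14.3 and 15.5 CPM, still below the lowest oligodendrocyte sum. Abcg1 was the 1 member called below each other class in astrocytes, where 4.87% of all genes were.

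Within fatty acid synthesis, Acaca was the member whose 4 classes were fully separate. Acetyl-CoA carboxylase, its product, makes malonyl-CoA in the committed step. Levels were 529.9, 564 and 651 CPM in oligodendrocytes, 282, 381 and 422 in astrocytes, 221, 241 and 252 in neurons and 53.3, 87.3 and 92.1 in microglia, and no range touched the next. The log2 differences were 0.94 ± 0.10 for oligodendrocytes against astrocytes, 0.46 ± 0.10 for astrocytes against neurons and 1.9 ± 0.12 for neurons against microglia. Fasn, the synthase itself, was called higher in oligodendrocytes and astrocytes than in neurons (1.25 ± 0.12 and 1.73 ± 0.23), and its -0.48 ± 0.21 between oligodendrocytes and astrocytes was not called. With RLE size factors and with unscaled totals, Fasn was called higher in astrocytes than in each other class.

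The desaturase genes Scd1 and Scd2, near-identical in places so that reads may be shared, introduce the double bond of oleate. Scd2 had 662, 724 and 1024 CPM in oligodendrocytes, 529, 653 and 942 in astrocytes, 85.3, 94.5 and 157 in neurons and 94.6, 140.3 and 329 in microglia. Oligodendrocytes and astrocytes overlapped with each other and with no neuronal or microglial sum, at 3.05 ± 0.11 and 2.56 ± 0.12 against neurons. The call of oligodendrocytes over astrocytes (0.49 ± 0.11) ended with unscaled totals. Neurons were called lowest for Scd2, but -0.37 ± 0.13 against microglia lost the call with no filter on low counts, with no library term, with the stricter nuclei and without normoxia 3 (-0.33). Scd1 was called highest in astrocytes, at 15.2, 17.2 and 28.8 CPM in oligodendrocytes, 30.2, 34.5 and 81.02 in astrocytes, 2.203, 3.22 and 7.83 in neurons and 1.87, 5.81 and 27.2 in microglia.

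The elongase genes differed from each other. Elovl5, which extends polyunsaturated chains, was called highest in oligodendrocytes (104, 108 and 116 CPM) ahead of astrocytes (30.2, 79.03 and 122), neurons (47.1, 50.5 and 61.2) and microglia (30.1, 33.8 and 41.4). Its 0.66 ± 0.13 against astrocytes lost the call in the normoxia libraries alone (0.41). Elovl6, which extends palmitate, was not called between oligodendrocytes and neurons, at 102, 129 and 140.5 CPM in oligodendrocytes, 62.1, 111 and 193 in astrocytes and 135, 147 and 157 in neurons. Astrocytes were lower than neurons (-0.41 ± 0.13), and with RLE size factors or unscaled totals neurons were called above all other classes for this gene. Microglia had 14.8, 21.1 and 34.2 CPM, below every other sum.

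**Figure D2:**
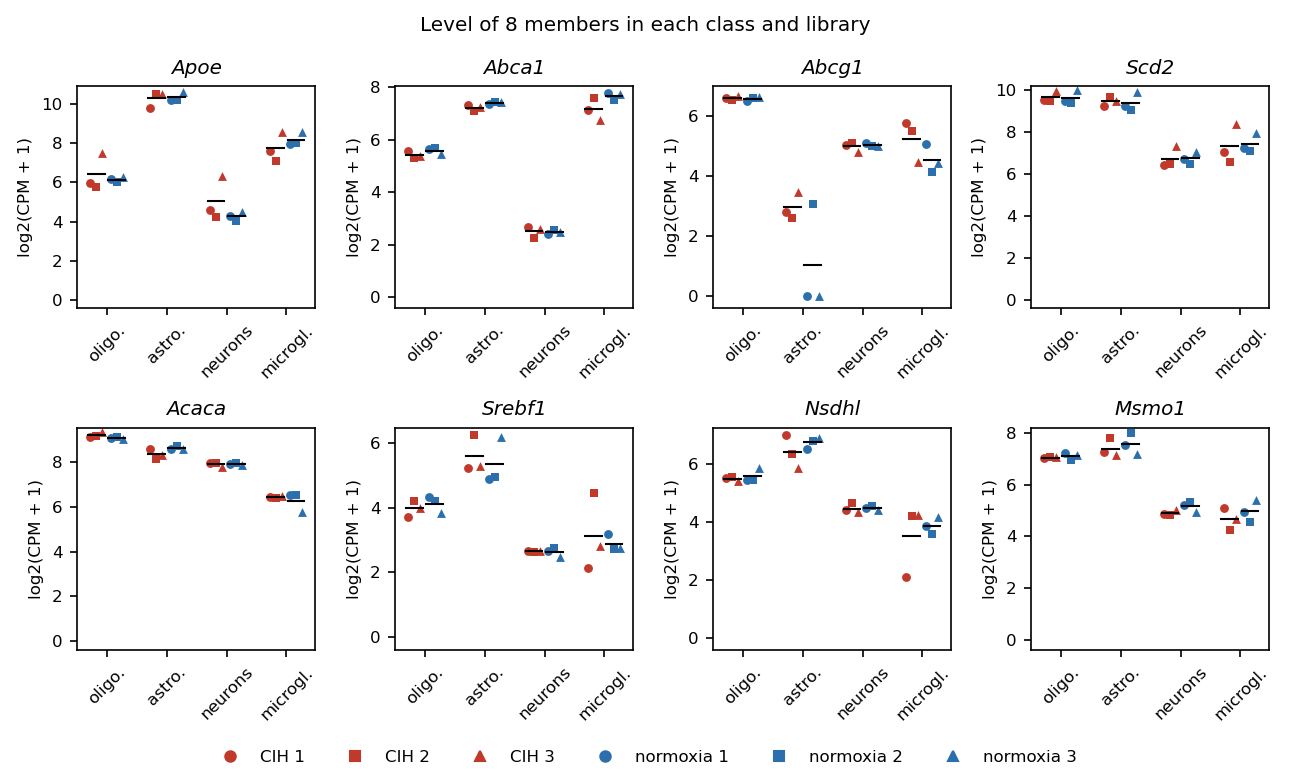
Levels of 8 members in 4 classes, as log2(CPM + 1) on the vertical axis; each point is 1 library, CIH left and normoxia right within a class, and bars are group means. Apoe and Srebf1 peak in astrocytes, Abcg1 and Acaca in oligodendrocytes, and Abca1 is lowest in neurons.

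Counted over the list, oligodendrocytes were above all 3 other classes for 7 members, Fdps, Srebf2, Scap, Abcg1, Acaca, Scd2 and Elovl5, where 13.7% of all genes were, and below all 3 for 0 (5.26%). Astrocytes were above all 3 for 9 members (9.3%) and below for 1. Neurons were above for 0 (18.4%) and below for 3, Abca1, Apoe and Scd2 (9.34%). Microglia were above for 0 (14.3%). With unscaled totals the counts above all 3 were 5 for oligodendrocytes, 12 for astrocytes and 1 for neurons.

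Other genes of lipid metabolism, 54 on lists chosen by role, of which 51 could be tested between classes, were compared between the same classes. Against neurons, oligodendrocytes were higher in 28 and lower in 15 (40.1% and 39.8% of all genes). The sphingolipid genes of myelin had 6 of 6 higher in oligodendrocytes than in neurons. Of these, 5 of 6 were above all 3 other classes, where 13.7% of all genes were. Ugt8a, the galactosyltransferase of myelin galactolipids, had 761, 774 and 832 CPM in oligodendrocytes, 6.04, 19.6 and 55.4 in astrocytes, 18.8, 23.5 and 32.9 in neurons and 20.7, 46.3 and 72.5 in microglia. Fa2h, the fatty acid hydroxylase, had a log2 difference of 6.62 ± 0.14 for oligodendrocytes against neurons, and Gal3st1, the sulfatide sulfotransferase, 3.82 ± 0.09. Very long chain elongation ran with them in part: Elovl7 was 4.71 ± 0.10 and Elovl1 2.44 ± 0.12 higher on the log2 scale in oligodendrocytes than in neurons, while Elovl4 was -1.94 ± 0.13.

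Fads2, the first desaturase of polyunsaturated chains, had 1.19, 2.94 and 7.59 CPM in oligodendrocytes, 187, 219 and 237 in astrocytes, 12.4, 13.4 and 16.2 in neurons and 2.71, 3.58 and 15.1 in microglia. Elovl2 was 4.03 ± 0.26 and Fads1 1.93 ± 0.13 higher in astrocytes than in neurons. Of the 15 genes for fatty acid supply, elongation and desaturation, 8 were higher and 4 lower in astrocytes than in neurons (24.2% and 30.7% of all genes). Acat1, a mitochondrial thiolase, was lower in oligodendrocytes than in neurons (-1.14 ± 0.08), and Lbr, a sterol reductase of the nuclear envelope, was higher (1.83 ± 0.10).

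Uptake and storage genes split by class. Lrp1, an apolipoprotein E receptor, was lowest in oligodendrocytes, at 7.75, 9.34 and 16.9 CPM, with 222, 292 and 348 in astrocytes, 88.4, 94.01 and 99.6 in neurons and 268, 317 and 390.4 in microglia. Soat1, which esterifies cholesterol for storage, was 3.21 ± 0.13 in astrocytes against neurons. Osbpl1a, an oxysterol-binding protein gene, was 1.97 ± 0.07 and Npc2, which carries cholesterol out of lysosomes, 2.25 ± 0.08 in oligodendrocytes against neurons. Among efflux genes, Apod, which encodes the lipid carrier apolipoprotein D, was 4.81 ± 0.15 and the transporter gene Abca2 2.6 ± 0.08 in oligodendrocytes against neurons, and Lcat, which esterifies cholesterol on lipoproteins, was 6.48 ± 0.40 and Pltp, the phospholipid transfer protein gene, 2.73 ± 0.41 in astrocytes against neurons. Of 8 genes of SREBP processing and sensing, 4 were higher and 2 lower in oligodendrocytes than in neurons (40.1% and 39.8% of all genes). Against astrocytes 3 were higher and 0 lower (26.8% and 21.7%), and against microglia 2 were higher and 5 lower (30.0% and 24.2%). Nfya, an NF-Y subunit gene, was lower in oligodendrocytes than in microglia (-1.75 ± 0.16). It was higher than in neurons, by 1.646 to 1.795 with each library left out in turn.

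CIH was then compared with normoxia within each class, the question the exposure was designed for. No member was called in any class by edgeR or by DESeq2, and the values leave room for moderate differences. In oligodendrocytes 32 members passed the filter on low counts, 0 were called and 2 had an unadjusted p under 0.05. Over all 13383 genes there, 0.00747% were called (1 gene, and 35 in DESeq2, none a member) and 822 had an unadjusted p under 0.05. With the replicate number as a block, edgeR called 103 genes in oligodendrocytes and no member. The median log2 fold change was -0.01 over members and 0.01 over all genes, and the median standard error of a member was 0.15.

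The 2 members of smallest p in oligodendrocytes make saturated and monounsaturated fatty acids. Scd1 had 18.2, 20.6 and 28.8 CPM in CIH 1, 2 and 3, against 16.2, 15.4 and 15.2 CPM in normoxia 1, 2 and 3. Each CIH library was above each normoxia library, and CIH 3 was furthest. The log2 fold change was 0.55 ± 0.19 (adjusted p = 0.672 in edgeR's quasi-likelihood test), and 0.32 without CIH 3. Fasn had 20.3, 20.8 and 30.0 CPM in CIH, against 17.9, 16.6 and 17.7 CPM in normoxia, again with no overlap and with CIH 3 highest. Its log2 fold change was 0.46 ± 0.18 (adjusted p = 0.77 in edgeR), and 0.24 without CIH 3. Of 32 members, these 2 (6.25%) had no overlap between groups, where 12.5% of all genes had none.

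Cyp51 in oligodendrocytes had 66.5, 68.3 and 89.99 CPM in CIH, against 85.6, 83.6 and 92.6 CPM in normoxia, with the first and second CIH libraries below all others and CIH 3 within the normoxia range. The log2 fold change of -0.22 ± 0.12 was not called (adjusted p = 0.835 in edgeR) and read -0.37 without CIH 3. Acaca, at 563, 579.9 and 651 CPM in CIH against 543, 565 and 529.9 CPM in normoxia, had 0.12 ± 0.07 (0.07 without CIH 3), and its groups overlapped. Srebf2 (0.11), Hmgcs1 (0.27) and Scd2 (0.02) also gave small log2 fold changes. The members' log2 fold changes in this class ran between -0.22 (Acat2) and 0.55 (Scd1).

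In astrocytes 16 of 32 members passed the filter, those of higher level, and 0 of them were called, with 2 at an unadjusted p under 0.05. Over all 3798 genes there 0.0% were called in edgeR and in DESeq2, and 220 had an unadjusted p under 0.05. Of the 16, 12 had a log2 fold change below 0, with a median of -0.26 against 0.00 over all genes and a median standard error of 0.26. Cyp51 had 66.4, 126 and 75.95 CPM in CIH, against 129, 159 and 119 CPM in normoxia. CIH 1 and CIH 3 lay below all normoxia libraries and CIH 2 among them, with a log2 fold change of -0.68 ± 0.27 (adjusted p = 0.778 in edgeR).

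Elovl5 in astrocytes had 30.2, 70.5 and 72.3 CPM in CIH, against 85.8, 122 and 98.4 CPM in normoxia, with no overlap and a log2 fold change of -0.71 ± 0.30 (adjusted p = 0.778 in edgeR). Acaca had 380.3, 282 and 320.3 CPM in CIH, against 381, 422 and 383 CPM in normoxia, and the groups only just failed to overlap, with -0.29 ± 0.18 (adjusted p = 0.895 in edgeR). Abca1 was the other member without overlap (log2 fold change -0.20), which made 3 of 16 (18.8%), where 11.3% of all genes had none. Nsdhl, at 127, 80.5 and 57.6 CPM in CIH against 90.5, 111 and 119 CPM in normoxia, overlapped, and its -0.48 ± 0.31 read -0.06 without CIH 3 and -0.76 without CIH 1. These sums rest on 42 to 384 nuclei and 165650 to 1092860 UMIs a library. Apoe in astrocytes had 887, 1470.0 and 1454 CPM in CIH, against 1177, 1166 and 1533 CPM in normoxia, with -0.02 ± 0.18.

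In neurons all 32 members passed the filter, 0 were called and 4 had an unadjusted p under 0.05. Over all 16124 genes 0.0% were called in edgeR, 25 genes in DESeq2, none a member, and 1130 had an unadjusted p under 0.05. The median was 0.01 over members and 0.00 over all genes. Scd1 had 3.24, 3.81 and 7.83 CPM in CIH, against 2.93, 3.197 and 2.203 CPM in normoxia, with no overlap, CIH 3 far above the rest and a log2 fold change of 0.90 ± 0.35 (adjusted p = 0.68 in edgeR), or 0.34 without CIH 3. Tm7sf2 had 6.83, 7.48 and 6.39 CPM in CIH, against 8.48, 9.26 and 8.199 CPM in normoxia, again without overlap, and -0.35 ± 0.15 (adjusted p = 0.708 in edgeR).

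Msmo1 in neurons had 28.3, 27.1 and 31.3 CPM in CIH, against 36.4, 39.2 and 29.9 CPM in normoxia, where CIH 3 lay above normoxia 3, and -0.29 ± 0.12 (adjusted p = 0.707 in edgeR). With Acat2 (log2 fold change 0.22) and Ebp (0.27), Scd1 and Tm7sf2 made 4 of 32 members without overlap (12.5%), where 12.9% of all genes had none.

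Apoe in neurons gave the largest fold change of any member in any class, and it rested on 1 library. Its level was 22.7, 18.03 and 78.5 CPM in CIH, against 18.4, 15.4 and 21.8 CPM in normoxia: CIH 3 stood far above the other 5, which overlapped. The log2 fold change was 1.12 ± 0.47 (adjusted p = 0.706 in edgeR), and 0.09 without CIH 3. Apoe in CIH 3 was also high in oligodendrocytes (62.6, 53.2 and 182 CPM in CIH, against 69.8, 64.1 and 75.4 CPM in normoxia) and in granule neurons (39.1, 39.6 and 130.1 CPM in CIH, against 35.9, 34.4 and 45.1 CPM in normoxia). With no filter on low counts, edgeR called Apoe in granule neurons (log2 fold change 0.80, adjusted p = 0.0265), the 1 call of a member between CIH and normoxia in any setting run. With the filter and without CIH 3 its log2 fold change read 0.02.

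The summed level of the 11 astrocyte markers was also highest in CIH 3 in these 3 classes. In neurons the list summed to 85.3, 83.7 and 149.99 CPM in CIH, against 72.4, 79.7 and 62.0 CPM in normoxia. In oligodendrocytes it summed to 193, 185 and 379.6 CPM in CIH, against 188, 198 and 204 CPM in normoxia, and in granule neurons to 99.4, 90.3 and 169.7 CPM in CIH, against 90.3, 91.7 and 67.2 CPM in normoxia. All 11 markers had UMIs in the neurons and oligodendrocytes of every library. Other lists were high in CIH 3 neurons too. The 10 oligodendrocyte markers summed to 83.4, 80.9 and 170.8 CPM in CIH neurons, against 84.7, 80.5 and 97.7 CPM in normoxia neurons, and the 5 ependymal and choroid plexus markers to 13.7, 31.5 and 81.7 CPM in CIH, against 4.61, 4.71 and 30.2 CPM in normoxia. The 10 microglial markers were lowest there, at 102.2, 88.4 and 71.3 CPM in CIH, against 96.3, 98.8 and 111.1 CPM in normoxia. The part of RNA of other cell types in the Apoe values, and in those of Scd1 in neurons, was not tested.

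In microglia 11 of 32 members passed the filter, 0 were called and 1 had an unadjusted p under 0.05. Over all 6375 genes 0.0157% were called (1 gene, and 2 in DESeq2), and 355 had an unadjusted p under 0.05. Abca1 had 141, 189 and 106 CPM in CIH, against 217, 181 and 215 CPM in normoxia: CIH 1 and CIH 3 were below all normoxia libraries and CIH 2 was among them. The log2 fold change was -0.50 ± 0.20 (adjusted p = 0.766 in edgeR), and -0.32 without CIH 3. Abcg1 had 53.6, 44.4 and 21.1 CPM in CIH, against 32.5, 16.8 and 20.9 CPM in normoxia, overlapping, with 0.78 ± 0.41 (0.52 without CIH 1).

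Insig2 in microglia had 60.3, 47.3 and 57.4 CPM in CIH, against 51.5, 33.6 and 36.1 CPM in normoxia, and 0.45 ± 0.29. Apoe had 191, 136 and 374 CPM in CIH, against 247, 256 and 382 CPM in normoxia, where the third library of both groups was the highest of its group. Its -0.35 ± 0.29 read -0.89 without CIH 3, -0.07 without CIH 2, -0.23 without CIH 1 and -0.11 without normoxia 3, so its size hung on which library was left out. No member of 11 lacked overlap between groups, where 11.6% of all genes did.

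In granule neurons 28 members passed the filter, 0 were called in edgeR and in DESeq2, and 2 had an unadjusted p under 0.05. Over all 10445 genes 0.0% were called in edgeR, 3 genes in DESeq2, and 411 had an unadjusted p under 0.05. Ebp had 10.97, 12.1 and 13.5 CPM in CIH, against 8.36, 5.73 and 7.65 CPM in normoxia, each CIH library above each normoxia library, with 0.72 ± 0.29 (adjusted p = 1.00 in edgeR). Dhcr7 had 9.87, 11.5 and 6.73 CPM in CIH, against 15.04, 16.5 and 13.6 CPM in normoxia, each CIH library below, with -0.64 ± 0.26 (adjusted p = 1.00 in edgeR). Scap had 33.3, 37.8 and 36.6 CPM in CIH, against 25.9, 28.7 and 28.9 CPM in normoxia, also without overlap, with 0.35 ± 0.17, which read 0.03 under a stricter gate. These 3 of 28 members made 10.7%, where 9.52% of all genes had no overlap. Fasn had 10.2, 8.46 and 11.96 CPM in CIH, against 4.18, 8.6 and 5.95 CPM in normoxia, overlapping through normoxia 2, without which its 0.63 ± 0.35 read 0.96.

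**Figure D3:**
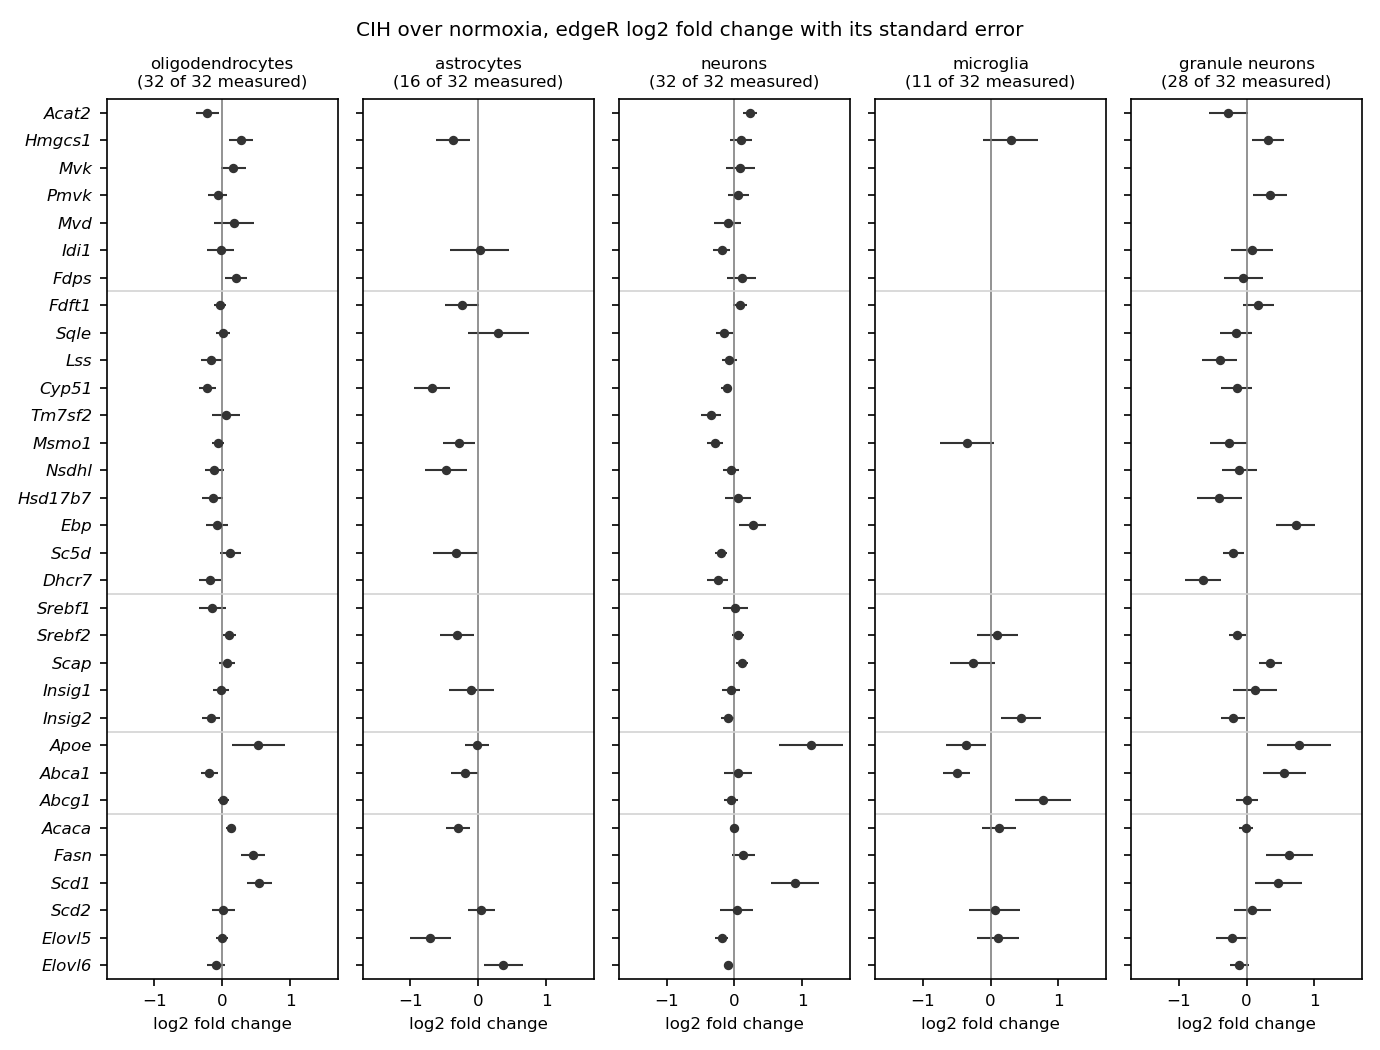
Log2 fold change of CIH over normoxia (horizontal axis; points with bars of 1 standard error, edgeR) for the members that passed the filter in each class, 32 in oligodendrocytes, 16 in astrocytes, 32 in neurons, 11 in microglia and 28 in granule neurons. Most points lie within 1 unit of 0, and Apoe in neurons, at 1.12, is the 1 beyond it.

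**Figure D4:**
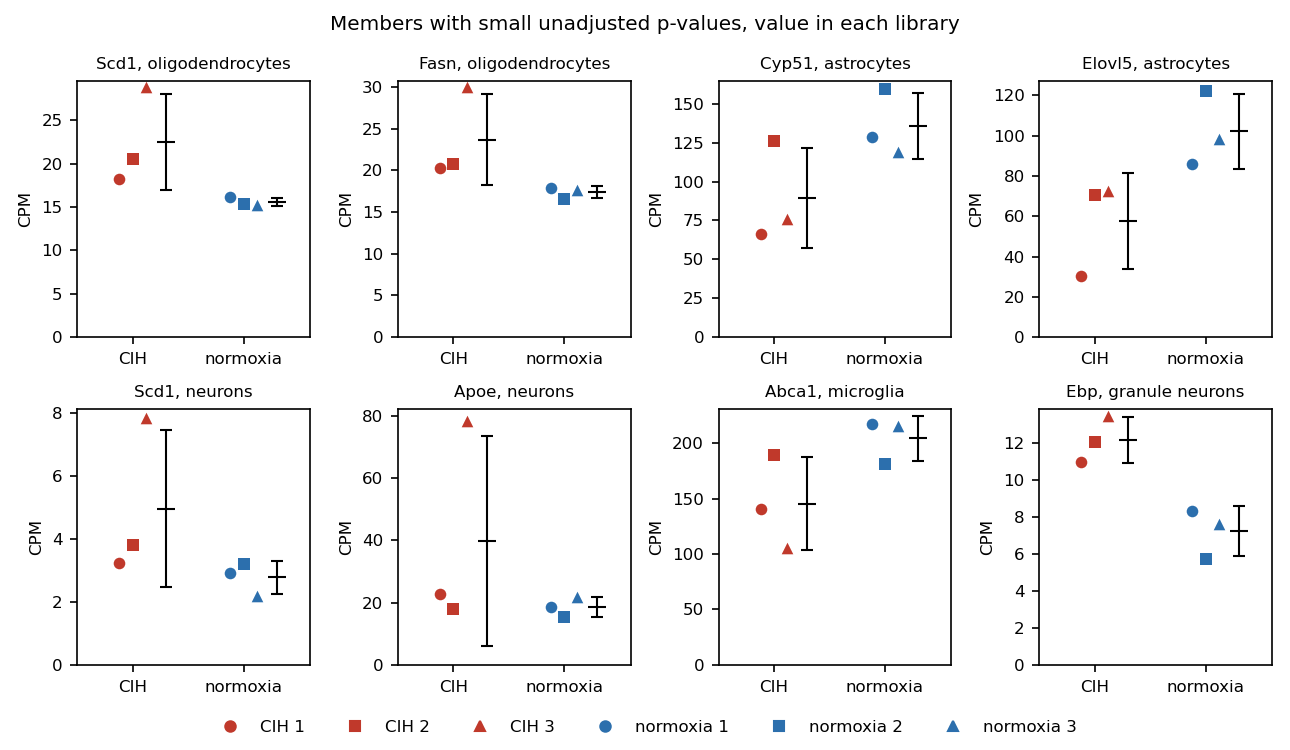
Levels in CPM (vertical axis) of the members with the smallest p in each class, 1 point a library, CIH left and normoxia right, with the group mean and SD. CIH 3 is the highest point for Scd1 and Fasn in oligodendrocytes and for Scd1 and Apoe in neurons.

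Whether the effect of CIH differed between classes was tested with limma on the difference between 2 classes within a library. No member was called in the 6 pairs, where 1, 2, 2, 0, 1 and 1 members had an unadjusted p under 0.05 (oligodendrocytes minus astrocytes, minus neurons, minus microglia, astrocytes minus neurons, minus microglia, and neurons minus microglia). Of all genes 0.0% were called in 5 pairs and 0.0324% (1 of 3084 genes) for astrocytes minus microglia. The nearest member was Apoe for neurons minus microglia, with a difference of 1.21 ± 0.26 on the log2 scale (adjusted p = 0.539 in limma), or 0.95 without CIH 3. Of the other 54 genes of lipid metabolism, 47 passed the filter in oligodendrocytes, 21 in astrocytes, 50 in neurons, 26 in microglia and 42 in granule neurons, and 0 of these were called between CIH and normoxia.

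How far the third library of each group stood apart for the members varied by class. Scd2, whose CIH and normoxia means were close in every class (log2 fold changes of 0.02 to 0.08 in the 5 classes fitted), was highest in the third CIH library in 5 of 6 classes and in the third normoxia library in 6 of 6, oligodendrocyte precursors included. In oligodendrocytes it had 731, 717 and 969 CPM in CIH, against 695, 662 and 1024 CPM in normoxia. Of the 32 members there, 19 were highest in CIH 3 among CIH libraries, 13 in normoxia 3 among normoxia libraries and 11 in both, where 41.5, 44.3 and 25.3% of all genes were. In neurons these counts were 16, 5 and 3 of 32 (31.3, 33.5 and 14.5% of all genes), and in astrocytes 3, 3 and 0 of 16 (32.5, 33.4 and 12.2%). Microglia had 6, 4 and 3 of 11 (34.2, 32.8 and 14.5%) and granule neurons 19, 11 and 8 of 28 (35.7, 35.1 and 18.1%). The labels do not say how the third libraries differ from the others.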

How the data were processed

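The authors deposited matrices of raw UMI counts per gene and nucleus for each library, made with Cell Ranger, version 6.1.2 per the file headers. The submitters' processing notes give 3.1.0 for that tool and list mm10 and Seurat 4.0. The treatment of intronic reads is not given in the sources used here. The members and gene lists were chosen with earlier results of these data known.

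Barcodes with 500 genes or more and 5% mitochondrial UMIs or less were kept and assigned by markers. The gates were at least 5 of 10 for oligodendrocytes, 4 of 11 for astrocytes, 4 of 10 for microglia and 4 of 12 for neurons. Neurons also needed at least 1 transmitter marker and at most 1 granule marker. The share of a list detected had to be at least 2 times that of each other list screened. Screening left out the Bergmann glia list and the ependymal and choroid plexus list, and the granule list for neurons. In astrocytes the 4 Bergmann glia markers summed to 1218 to 1310 CPM in CIH and 1140 to 1346 CPM in normoxia. Counts were summed per library and class (Python 3.11.15, scanpy 1.11.5, numpy 2.4.6, pandas 2.3.3, scipy 1.17.1, matplotlib 3.10.9). Sums were compared with edgeR 4.0.16 in R 4.3.3 (filterByExpr, TMM scaling, quasi-likelihood F test), CIH against normoxia in 1 fit per class and classes in 1 fit with a library term, and differences in the CIH effect with limma 3.58.1 (prior count 1). Adjusted p-values are Benjamini-Hochberg over all genes tested, with a threshold of 0.05. TMM factors had a median of 0.86 in oligodendrocytes, 1.05 in astrocytes, 0.949 in neurons and 1.20 in microglia, so fitted differences between classes are not ratios of CPM. The procedures were tested on simulated counts with known changes.

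Genes were named by rule: in each class the 4 members of smallest p between CIH and normoxia, for each class up to 4 members called higher and 4 called lower than all 3 others, and up to 3 of each other role list by smallest p. The remaining members were added to account for all 32. Some genes of the other role lists are not reported here. Same-numbered libraries of the groups deviated together in oligodendrocytes (correlations of 0.155, 0.196 and 0.424 over 13383 genes, all above 0.1), so the replicate block is given beside that class. CIH 2 with normoxia 1 (0.198) and CIH 1 with normoxia 2 (0.142) correlated as much, so the numbers 1 and 2 are not told apart there and the third libraries alone stand out. The pairing comes from the data and the shared numbers, and the labels name no shared litter or day.

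Alternatives were RLE size factors, DESeq2 1.42.0, no filter on low counts, a block for the replicate number, each library left out, limits of 1000 genes and 1% mitochondrial UMIs, a gate with 1 more marker, high Scrublet scores removed (0.8% per 1000 barcodes), no library term, normoxia libraries only and granule neurons included. Added after seeing the data were leaving out shared barcodes, class totals with no scaling factors, and the alternatives of the limma comparison. Doublets were otherwise kept. Floors for sums with no UMI were set at 3 counts and cover counting error only, while standard errors come from the fits over libraries.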

Additional observations from a re-analysis of the deposited data

How the results depend on the processing

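Over 16 settings the class pairs called 13 to 20 members for oligodendrocytes against astrocytes, 27 to 29 against neurons and 30 to 31 against microglia, 22 to 26 for astrocytes against neurons, 25 to 29 against microglia, and 19 to 25 for neurons against microglia. Leaving out 1 library at a time gave 16 to 20, 27 to 29, 30 to 30, 23 to 26, 27 to 29 and 21 to 23 in the same order. Between CIH and normoxia 0 members were called in every setting run, leaving out each library included (0 to 0 in each of the 5 classes and in each of the 6 class differences), with 1 exception: with no filter on low counts 1 member, Apoe, was called in granule neurons (log2 fold change 0.80, adjusted p = 0.0265 in edgeR). The 20 values between CIH and normoxia chosen by the naming rule kept their sign in every setting run. Over all members with a value, 15 of 32 turned sign in at least 1 setting in oligodendrocytes, 5 of 16 in astrocytes, 16 of 32 in neurons, 4 of 11 in microglia and 12 of 28 in granule neurons, Scd2 in each class and Apoe in oligodendrocytes (-0.27 without CIH 3) and astrocytes among them. Calls on all genes moved more: DESeq2, no filter and the block called 35, 72 and 103 genes in oligodendrocytes, 0, 9 and 0 in astrocytes, 25, 38 and 0 in neurons, 2, 61 and 13 in microglia and 3, 68 and 18 in granule neurons.

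The replicate block called 0 members in every class. Only in oligodendrocytes did all same-numbered pairs pass the limit for a pairing. In the other classes the correlations of same-numbered libraries were 0.019, -0.058 and 0.183 in astrocytes, 0.077, 0.093 and 0.224 in neurons, 0.045, 0.106 and 0.229 in microglia and 0.067, 0.227 and 0.372 in granule neurons, so there the block shares only a number.

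Depth limits astrocytes and microglia, where 16 and 11 of 32 members passed the filter and the median standard error of a log2 fold change was 0.26 and 0.31, against 0.15 in oligodendrocytes and 0.13 in neurons. A p that misses the threshold at 3 libraries a group does not show that levels were equal.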
